A study of Mus musculus with 6 samples.

Results

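The 38 genes described here act in the interferon response and in class I antigen presentation. They were found by symbol among the 55401 genes of the expression table, and all 38 were present. By role they are 4 sensors of foreign nucleic acid, 6 receptor subunits and receptor kinases, 5 transcription factors of the STAT and IRF families, 16 effectors and other interferon-induced genes, and 7 genes of class I presentation. The samples were NIH-3T3 cells, a mouse embryonic fibroblast line, in 2 forms: a mutated derivative (MU, labelled with the genotype Mutation, 3 libraries) and the unmutated line (WT, 3 libraries). Both were cultured in DMEM with 10% serum and antibiotics, and no other treatment is given. The study's title concerns infidelity of mitochondrial translation, but neither the mutated gene nor the kind of change is named in the labels, and whether MU grew from a single cell is not given there either. With 1 derivative and 1 parent line, the mutation and any other difference between the lines cannot be told apart.

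Cells sense viral or misplaced RNA through RIG-I-like receptors and DNA through cGAS, and answer by secreting type I interferon. Interferon binds its receptor, the kinases JAK1 and TYK2 phosphorylate STAT proteins, and a complex of STAT proteins with IRF9 binds an interferon-stimulated response element (ISRE) in the promoters of effector genes. Type II interferon acts through its own receptor and raises the genes that load peptides onto class I molecules. Fibroblasts are a classical source of, and target for, type I interferon, and unstressed fibroblasts keep a low tonic level of the pathway. RNA or DNA that leaves damaged mitochondria is a known trigger of these sensors.

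Values are in TPM (transcripts, as a share of the library's total, in parts per 1000000), which are scaled for gene length and library total. TPM keeps no sequencing depth, so the depth behind each value is unknown. Differences are on the log2(TPM + 1) scale, MU minus WT, and a call is a Benjamini-Hochberg adjusted p under 0.05 in limma over all tested genes. The labelled cell type was borne out by its markers, since 9 of 10 fibroblast markers were at 1 TPM or more in every library. The exception was Lum, at 0, 0.162 and 0.0311 TPM in MU and at 1.68, 0.812 and 1.07 TPM in WT. Of the 9 tested fibroblast markers, 4 were called higher in MU and 0 lower (44.4% higher, against 7.12% of all tested genes). Col1a1 averaged 613.4 TPM in MU and 326.1 TPM in WT, Col1a2 2180 and 859.3, Fn1 1427 and 736.5, and Thy1 211.6 and 145.3. Of 13 leukocyte markers, 2 (Csf1r and Cd68) were at 1 TPM or more in every library. The leukocyte list summed to 12.4 to 16.6 TPM in MU and 5.27 to 6.94 TPM in WT. Of its 3 tested genes, Csf1r, the receptor for macrophage colony-stimulating factor, was called higher in MU (5.34 ± 0.848 TPM in MU and 1.87 ± 0.1095 TPM in WT; adjusted p = 0.00528 in limma). Cd68 averaged 4.47 TPM in MU and 2.56 TPM in WT, and Fcer1g 2.25 TPM in MU and 1.04 TPM in WT, without a call. Lyz2, below the filter, averaged 1.14 TPM in MU and 0.394 TPM in WT. Ptprc, the general leukocyte marker, was at no more than 0.206 TPM in MU and 0.285 TPM in WT, and Adgre1 and Tyrobp were at 0 in all 6 libraries. What part these transcripts have in the members' results was not tested. The endothelial and epithelial lists summed to at most 0.867 TPM in MU and 3.22 TPM in WT. The endothelial marker Cdh5 averaged 0.105 TPM in MU and 1.82 TPM in WT. It met the filter through its WT libraries alone, so its call as lower is a description. Libraries differed in how their deviations from each gene's mean over the 6 libraries depended on the GC content of genes. The Spearman correlation of these deviations with GC content across genes was 0.17 for MU replicate 3, 0.33 for WT replicate 2 and −0.25 for WT replicate 3. It was −0.12 to −0.08 for the other 3.

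The calls among the interferon genes went in both directions in the mutated cells. Of the 38, 30 passed a filter of 1 TPM in at least 3 libraries, 5 rose and 4 fell. Among all tested genes 18.8% were called, 7.12% higher and 11.6% lower in MU. Among the 30 members these shares were 16.7% higher and 13.3% lower, so the lower share was near the background. The genes that rose were Stat2, Bst2, Ifi27, Tap1 and Tapbp, and those that fell were Cgas, Ifit2, Ifit3 and Trim25. Of these, Ifit3 met the filter through its WT libraries alone, so its fall is a description and supports no count. The median log2 fold change of the tested members was 0.25, against −0.05 over all tested genes. In bulk RNA, a change in the share of cells that express a gene and a change in RNA per cell cannot be told apart. Genes encoded in mtDNA took 13.9 to 15.3% of TPM in MU and 8.597 to 12.45% in WT, and the split between rises and falls depended on scaling: 6 members rose and 2 fell when mtDNA-encoded genes were left out of the scaling, 5 and 2 under median-of-ratios size factors, and 7 and 2 when libraries were quantile normalized. Over all tested genes, 1012 rose and 1655 fell, and under these 3 scalings 1159 and 1229, 1278 and 1367, and 1262 and 1322. The number of member rises was 1 without MU replicate 1 or 3, 3 without MU replicate 2 or WT replicate 1, and 7 without WT replicate 2. The number of member falls was 2 without WT replicate 2 and 1 without any other single library. Over all tested genes the rises were 453, 427 and 465 without MU replicate 1, 2 or 3. They were 629, 1153 and 985 without WT replicate 1, 2 or 3. The falls were 705, 644 and 738, and 801, 2238 and 1590, in the same order.

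**Figure D1:**
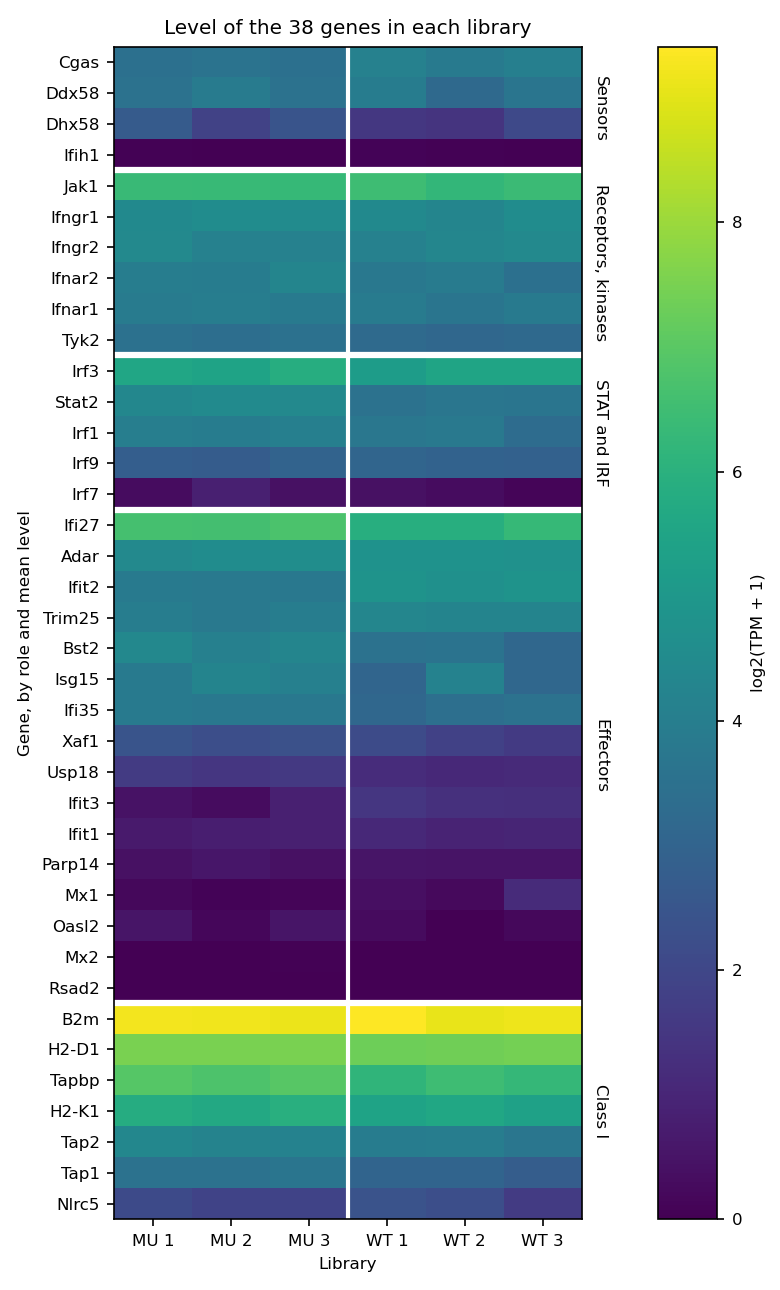
Level of each of the 38 genes in the 3 MU and 3 WT libraries as log2(TPM + 1), grouped by role and ordered by mean level within a role. B2m is the brightest row (559.7 to 600.7 TPM in MU and 548.1 to 678.3 TPM in WT), while Ifih1, Irf7, Parp14, Mx2, Oasl2 and Rsad2 are dark in all 6 libraries.

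None of the 9 listed interferon genes passed the filter. Of these 9, Ifnb1 and 5 others were at 0 in all 6 libraries. The other 3 were detected in single libraries or at low level: Ifne, the epithelial type I interferon, was at 0.498, 0.173 and 0.327 TPM in MU and at 0, 0.328 and 1.36 TPM in WT. Ifng was at 0 TPM in all MU libraries and at 0, 0 and 0.223 TPM in WT. Ifnk was at 0, 0.387 and 0 TPM in MU and at 0 TPM in all WT libraries. No difference was therefore tested, and a listed 0 does not mean that the RNA was missing.

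The 8 members below the filter include several of the classical markers of a running interferon response. None exceeded 0.753 TPM in MU or 1.204 TPM in WT. Rsad2, which encodes viperin, was at 0 TPM in all 6 libraries. Mx2, annotated as a polymorphic pseudogene in the reference, was at 0, 0 and 0.0315 TPM in MU and at 0 TPM in each WT library. Ifih1, the sensor MDA5 of long double-stranded RNA, was at 0.0260, 0.0137 and 0 TPM in MU and at 0.0626, 0.0498 and 0 TPM in WT. These 3 genes were close to silent in both lines. Oasl2, an antiviral relative of the oligoadenylate synthetases, was at 0.434, 0.119 and 0.463 TPM in MU and at 0.205, 0 and 0.158 TPM in WT. Irf7, the factor that amplifies type I interferon production, was at 0.244, 0.752 and 0.335 TPM in MU and at 0.343, 0.239 and 0.0957 TPM in WT. Parp14, an ADP-ribosyltransferase induced by interferon, was at 0.348, 0.501 and 0.345 TPM in MU and at 0.442, 0.394 and 0.401 TPM in WT. For Oasl2, Irf7 and Parp14 the groups overlapped. Mx1, an antiviral GTPase, was at 0.141, 0.0584 and 0.106 TPM in MU and at 0.296, 0.189 and 1.204 TPM in WT, so its MU libraries lay below WT, whose own libraries were widely spread. Ifit1, which binds RNA that lacks the host cap structure, was at 0.601, 0.742 and 0.753 TPM in MU and at 1.15, 0.934 and 0.950 TPM in WT, with every MU library below every WT library.

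Among the sensors, the DNA sensor fell and the RNA sensors gave no call. The fall was 1 of 3 tested sensors (33.3%, against 11.6% of all tested genes). Cgas (ENSMUSG00000032344.17, chromosome 9, 78430526 to 78443237, GRCm38) encodes the enzyme that makes the messenger cGAMP on binding DNA. It stood at 10.0, 10.9 and 10.1 TPM in MU and at 16.7, 13.6 and 15.8 TPM in WT. All MU libraries lay below all WT libraries, and the log2 fold change was −0.52 (SE 0.11; adjusted p = 0.0229 in limma). The call was lost without any single MU library or without WT replicate 1 or 3 (adjusted p 0.0515 to 0.0902). Ddx58, which encodes the RNA sensor RIG-I, was at 10.7, 14.2 and 10.8 TPM in MU and at 14.5, 8.29 and 11.7 TPM in WT. Its groups overlapped, and its log2 fold change of 0.06 (95% interval −0.45 to 0.57) turned to −0.06 without MU replicate 2 and −0.14 without WT replicate 2. Dhx58, the regulator LGP2 of these sensors, was at 5.55, 2.62 and 4.45 TPM in MU and at 1.89, 1.67 and 3.21 TPM in WT (log2 fold change 0.66, interval −0.01 to 1.34, limma adjusted p = 0.157).

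The receptors and their kinases showed no call. Of these 6 genes, 0 passed in limma, where 18.8% of all tested genes were called. An unadjusted p under 0.05 in limma was found for 1 of them (Tyk2), and for 4741 of all 14209 tested genes. By the authors' adjusted p, 0 of the 6 passed, against 21.1% of all genes with an adjusted p in their deposited table. Jak1, the kinase shared by the type I and type II receptors, was the most abundant, at 81.1, 80.4 and 77.6 TPM in MU and at 87.7, 73.4 and 83.6 TPM in WT. Its log2 fold change of −0.03 (95% interval −0.25 to 0.19) became 0.04 when mtDNA-encoded genes were left out of the scaling or median-of-ratios size factors were used, and 0.09 when libraries were quantile normalized. Tyk2, the kinase bound to the type I receptor, was at 10.5, 9.50 and 10.3 TPM in MU and at 8.61, 7.74 and 8.31 TPM in WT. Here every MU library was above every WT library, with a log2 fold change of 0.26 (interval 0.01 to 0.52, limma adjusted p = 0.134).

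Of the receptor subunits, Ifnar1 averaged 14.0 ± 0.740 TPM in MU and 13.1 ± 1.25 TPM in WT (SD, n = 3 each). Ifngr1, the ligand-binding chain of the type II receptor, averaged 22.2 ± 0.882 TPM in MU and 20.8 ± 2.27 TPM in WT. Ifngr2, its partner chain, averaged 17.8 ± 2.19 TPM in MU and 18.7 ± 2.16 TPM in WT. The groups overlapped for these 3 genes, and their intervals spanned −0.38 to 0.36 on the log2 scale. Ifnar2 was at 14.7, 14.5 and 18.5 TPM in MU and at 12.6, 13.9 and 10.2 TPM in WT, without overlap (log2 fold change 0.35, interval −0.01 to 0.72, limma adjusted p = 0.161).

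Stat2 was the single transcription factor that rose, 1 of 4 tested (25%, against 7.12% of all tested genes). Stat2 (ENSMUSG00000040033.16, chromosome 10, 128270559 to 128292849) encodes the STAT protein specific to type I and type III interferon signalling. It stood at 19.6, 21.7 and 20.3 TPM in MU and at 10.7, 12.1 and 11.6 TPM in WT. The groups were well apart, with a log2 fold change of 0.79 (SE 0.10; adjusted p = 0.00358 in limma), and the call held in all 18 alternative settings. The median log2 fold change of up to 20 protein-coding neighbours on each side was 0.21. Such local shifts were taken relative to the median of all tested genes (−0.05), and after subtracting them the fold change was 0.53. Irf9, the partner of STAT2, did not follow: it averaged 6.23 ± 0.644 TPM in MU and 6.90 ± 0.443 TPM in WT (log2 fold change −0.13, limma adjusted p = 0.515). Irf1, a factor induced mainly by type II interferon, was at 15.4, 14.5 and 15.6 TPM in MU and at 12.4, 12.8 and 8.93 TPM in WT. It did not overlap between groups, but its log2 fold change of 0.40 gave no call (limma adjusted p = 0.114), except with the GC and length correction (0.0354). Irf3, which the sensors activate, was the most abundant factor, at 46.7, 43.2 and 56.6 TPM in MU and at 35.7, 44.3 and 43.7 TPM in WT (log2 fold change 0.24, limma adjusted p = 0.281).

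**Figure D2:**
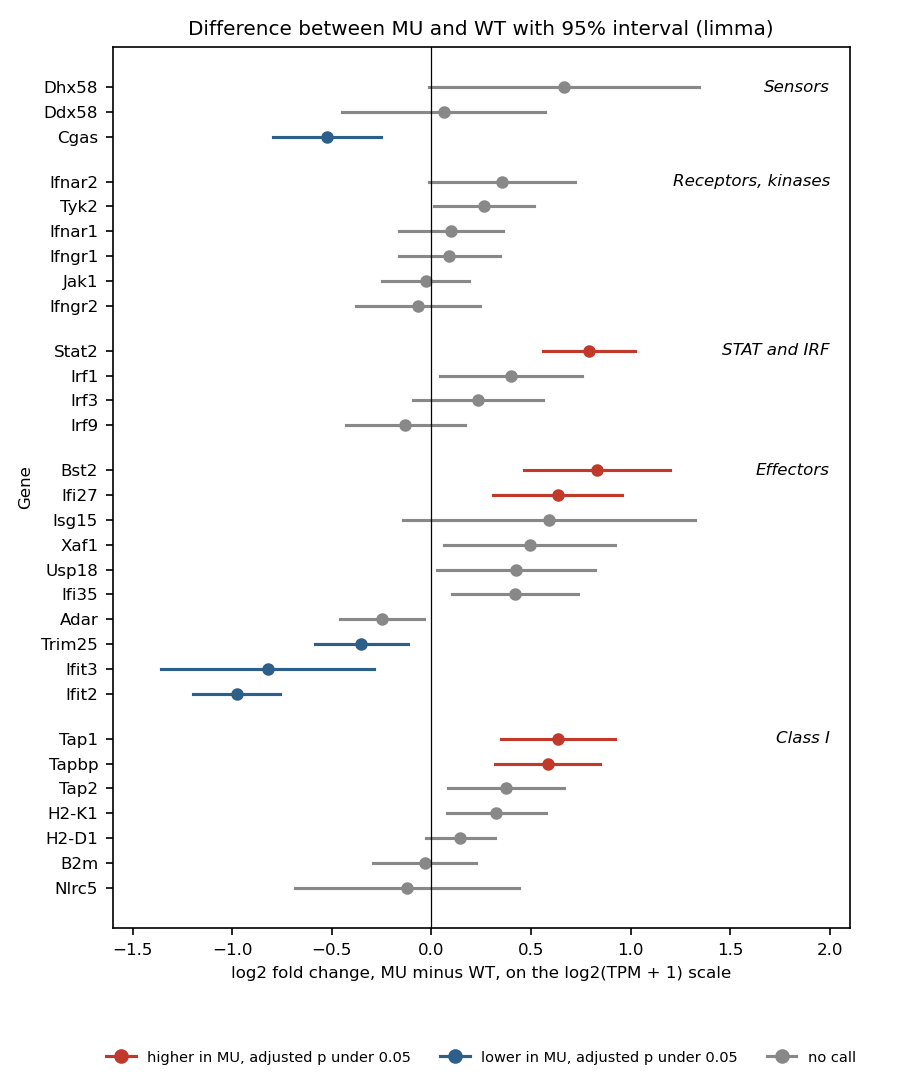
Log2 fold change, MU minus WT, of the 30 tested members with 95% intervals from limma, grouped by role. Red points passed as higher in MU (5 genes) and blue points as lower (4 genes); effectors lie on both sides of 0, from 0.83 for Bst2 to −0.98 for Ifit2.

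The effectors went in opposite directions. Of 16 genes 10 were tested, 2 rose and 3 fell (20% and 30%, against 7.12% and 11.6% of all tested genes). The 3 falls include Ifit3, which met the filter through its WT libraries alone, so the 30% is only a description. Ifit2 (ENSMUSG00000045932.12, chromosome 19, 34550694 to 34576419) encodes an RNA-binding inhibitor of viral translation. It stood at 13.8, 12.9 and 12.7 TPM in MU and at 27.7, 25.2 and 27.6 TPM in WT. Its MU level was clearly the lower one, with a log2 fold change of −0.98 (SE 0.09; adjusted p = 0.00148 in limma), and the call held in all 18 alternative settings. Ifit3 (ENSMUSG00000074896.3, chromosome 19, 34583531 to 34588731), which stabilises IFIT1, was at 0.369, 0.239 and 0.777 TPM in MU and at 1.79, 1.46 and 1.42 TPM in WT. It passed the filter through its WT libraries alone, so that it had to differ, and its call is given as a description. Its log2 fold change of −0.82 (SE 0.22; adjusted p = 0.0472 in limma) was no longer a call without any 1 of the 6 libraries (0.0617 to 0.145). In total the call was lost in 12 of the 17 alternative settings that fitted Ifit3. The Ifit genes lie side by side. Over 99.3 kb of chromosome 19, all 6 protein-coding Ifit genes averaged lower in MU, and in 5 of them every MU library was below every WT library, as in 3275 of all 14209 tested genes (23%; 39.2% did not overlap in either direction). Of these 5, Ifit1, Ifit1bl1 and Ifit3b were below the filter and are not covered by that share. Ifit3 met the filter through its WT libraries alone, so its groups could not overlap. Only Ifit2 can be set beside that share. Ifit1bl1 averaged 0.0471 TPM in MU and 0.367 TPM in WT, Ifit3b 0.160 TPM in MU and 0.542 TPM in WT, and Ifit1bl2 0.0519 TPM in MU and 0.115 TPM in WT. The Ifit genes resemble each other, and the treatment of reads shared between them is not given here. The neighbours of Ifit2 had a median log2 fold change of 0.01.

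Trim25 (ENSMUSG00000000275.16, chromosome 11, 88999376 to 89020293) encodes a ubiquitin ligase that activates RIG-I. It was at 14.7, 13.0 and 14.9 TPM in MU and at 19.2, 18.04 and 17.96 TPM in WT. The groups did not overlap, and the log2 fold change was −0.35 (SE 0.10; adjusted p = 0.0498 in limma), just inside the threshold. The call was lost without any 1 of the 6 libraries (0.0536 to 0.181) and with each of the 3 other scalings (0.05945 to 0.0963). In total it was lost in 15 of the 18 alternative settings. In the authors' deposited table its adjusted p was 0.0535. Adar, the RNA-editing enzyme that marks self double-stranded RNA, was at 20.5, 22.8 and 23.3 TPM in MU and at 26.7, 26.7 and 26.2 TPM in WT, without overlap and without a call (log2 fold change −0.25, limma adjusted p = 0.103).

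Bst2 and Ifi27 rose. Bst2 (ENSMUSG00000046718.8, chromosome 8, 71534255 to 71537456) encodes tetherin, a membrane protein that holds budding virus at the cell surface. It was at 19.9, 16.1 and 18.4 TPM in MU and at 10.7, 10.9 and 7.83 TPM in WT. The groups were apart by more than their spread, with a log2 fold change of 0.83 (SE 0.15; adjusted p = 0.0139 in limma), while its neighbours' median was −0.19. Without MU replicate 1 or 3 the adjusted p was 0.0610 or 0.0580. Ifi27 (ENSMUSG00000064215.13, chromosome 12, 103434211 to 103440239), a small membrane protein of mitochondria and nuclear envelope, was the most abundant effector, at 97.2, 96.2 and 107.5 TPM in MU and at 57.9, 58.3 and 78.5 TPM in WT. Its log2 fold change was 0.63 (SE 0.14; adjusted p = 0.0224 in limma), and the call was lost without any single MU library or WT replicate 1 (0.0733 to 0.0869).

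Isg15, the ubiquitin-like modifier, was split within WT. It stood at 13.2, 17.9 and 16.3 TPM in MU and at 7.35, 17.2 and 7.94 TPM in WT, so WT replicate 2 lay among the MU libraries. With all libraries the log2 fold change was 0.59 (SE 0.31; adjusted p = 0.232 in limma), and without WT replicate 2 it was 0.95 (adjusted p = 0.0114). For the other 3 tested effectors the lowest MU library was above the highest WT library, as for 16.1% of all tested genes, without a call. Ifi35 averaged 12.8 ± 0.341 TPM in MU and 9.40 ± 1.46 TPM in WT (limma adjusted p = 0.0734), and passed after position centring (0.0417). Usp18, the protease that removes ISG15 and damps receptor signalling, averaged 1.95 ± 0.167 TPM in MU and 1.196 ± 0.0599 TPM in WT (limma adjusted p = 0.127), and passed in limma without trend (0.0307). Xaf1, a pro-apoptotic interferon-induced gene, averaged 4.12 ± 0.325 TPM in MU and 2.68 ± 0.677 TPM in WT (limma adjusted p = 0.106).

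**Figure D3:**
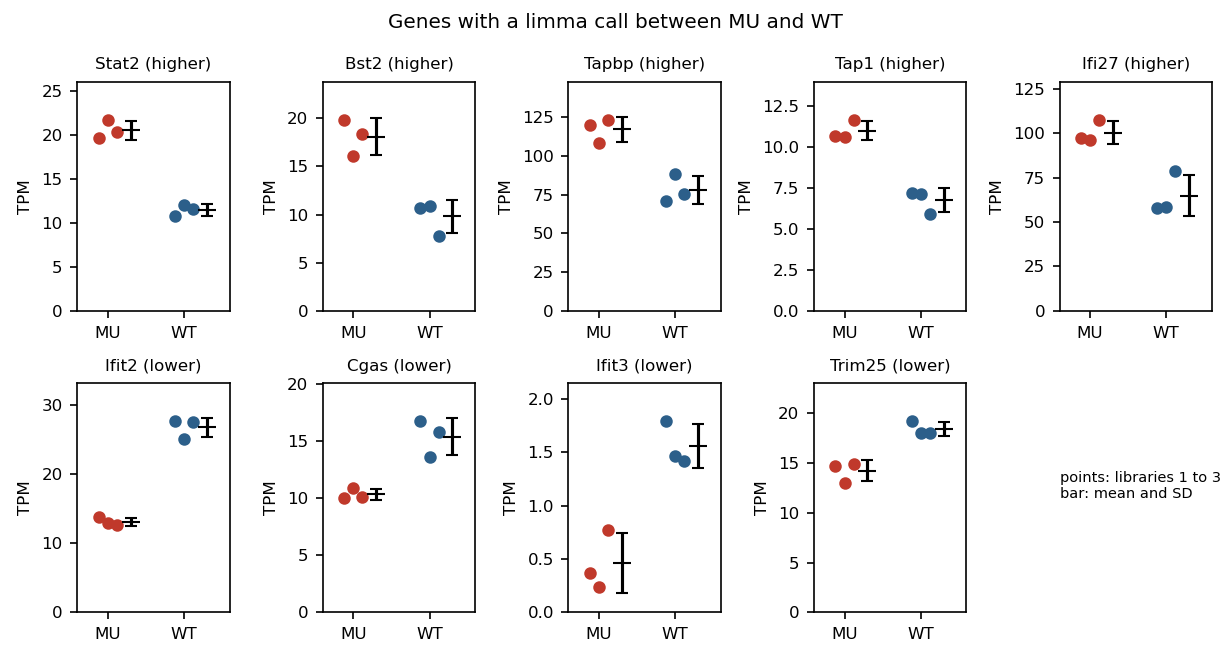
TPM of the 9 called members in each library, with MU (red) left of WT (blue) and the mean with its SD beside the points; each axis starts at 0. The MU and WT points do not overlap in these 9 panels, which were picked by their call. Among all tested genes 39.2% did not overlap. Stat2 is at 19.6 to 21.7 TPM in MU and 10.7 to 12.1 TPM in WT.

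To place these changes beside the promoters, the ISRE core (GAAA repeated after any 2 bases) was searched on both strands of windows from 250 bases before to 50 bases after each RefSeq gene start (GRCm38.p6), and 30 of the 38 members had a window. The core was found in 9 of these 30 members, and in 3.99% of all 27025 genes with a window. Among members with a window it stood in 2 of the 4 that rose (Stat2 and Bst2), in 1 of the 4 that fell (Ifit3), in 3 of the 17 without a call and in 3 of the 5 below the filter. The stretches around the core are shown for 2 members that rose (Stat2, Bst2), 1 that fell (Ifit3), 1 below the filter (Ifit1) and 1 split within WT (Isg15), because they carry the same letters; capitals mark the core, all are written 5′ to 3′ on the gene's strand, and the reference strain is C57BL/6J.
Stat2, chr10:128270251-128270310, plus strand: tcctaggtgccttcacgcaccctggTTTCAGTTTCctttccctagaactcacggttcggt
Bst2, chr8:71537562-71537627, minus strand: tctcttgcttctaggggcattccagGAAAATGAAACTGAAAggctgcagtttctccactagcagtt
Ifit3, chr19:34583348-34583441, plus strand: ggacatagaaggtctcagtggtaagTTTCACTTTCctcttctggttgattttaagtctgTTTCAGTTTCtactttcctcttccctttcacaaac
Ifit1, chr19:34640760-34640838, plus strand: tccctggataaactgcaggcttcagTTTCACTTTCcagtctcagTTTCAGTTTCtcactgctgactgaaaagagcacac
Isg15, chr4:156200850-156200921, minus strand: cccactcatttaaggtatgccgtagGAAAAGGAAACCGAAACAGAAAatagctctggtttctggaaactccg
Bst2 holds 2 and Isg15 holds 3 overlapping matches, while Ifit3 and Ifit1 hold 2 separate ones on the opposite strand. Tap1, Tapbp, Cgas, Ifit2 and Trim25 have no such letters in their windows. A second element, the GAS core (TTC and GAA with any 3 bases between), was found in 7 of the 30 members and in 9.55% of all genes with a window. A match describes these letters only.

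In class I presentation, Tap1 and Tapbp rose, while the transporter's second chain, both heavy chains, the light chain and Nlrc5 gave no call. Of 7 genes, 2 rose and 0 fell (28.6% higher, against 7.12% of all tested genes), and in 5 every MU library was above every WT library, against 16.1% of all tested genes. Tapbp (ENSMUSG00000024308.15, chromosome 17, 33915899 to 33929292) encodes tapasin, which bridges class I molecules to the peptide transporter. It was at 120.2, 108.1 and 123.4 TPM in MU and at 70.8, 88.5 and 75.2 TPM in WT. The log2 fold change was 0.58 (SE 0.11; adjusted p = 0.0146 in limma), and the adjusted p was 0.0666 or 0.0660 without MU replicate 1 or 3, and 0.0522 without WT replicate 1. Its neighbours on chromosome 17 had a median log2 fold change of 0.24, and after position centring its fold change was 0.29 (limma adjusted p = 0.129). Tap1 (ENSMUSG00000037321.17, chromosome 17, 34187553 to 34197225) encodes one chain of the peptide transporter. It was at 10.7, 10.6 and 11.7 TPM in MU and at 7.19, 7.16 and 5.91 TPM in WT. The groups did not overlap, with a log2 fold change of 0.63 (SE 0.12; adjusted p = 0.0148 in limma), and the call was lost without any single MU library (0.0596 to 0.0667).

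Tap2, the other chain, was at 19.6, 17.4 and 16.9 TPM in MU and at 14.5, 14.7 and 11.8 TPM in WT. Its groups did not overlap, and its log2 fold change of 0.37 missed the threshold in limma (adjusted p = 0.0797), while the authors' deposited table gives an adjusted p of 0.0368. With the GC and length correction it passed in limma (0.0285). H2-K1, a class I heavy chain, was at 55.0, 50.02 and 59.9 TPM in MU and at 43.1, 47.4 and 40.4 TPM in WT. Its log2 fold change of 0.33 (limma adjusted p = 0.0752) passed when mtDNA-encoded genes were left out of the scaling (0.0391), when libraries were quantile normalized (0.0379), with the GC and length correction (0.0128) and without WT replicate 2 (0.0412). H2-D1, the other heavy chain, was at 182.2, 182.7 and 182.5 TPM in MU and at 159.8, 164.0 and 171.6 TPM in WT (log2 fold change 0.14, limma adjusted p = 0.219), and passed when libraries were quantile normalized (0.0399). The heavy chain genes have close paralogs, so their values are uncertain where reads were shared. B2m, the invariant light chain, was the most abundant member, at 600.7, 593.3 and 559.7 TPM in MU and at 678.3, 548.1 and 575.0 TPM in WT. Its groups overlapped, and its log2 fold change of −0.03 (95% interval −0.29 to 0.22) became 0.03 when mtDNA-encoded genes were left out of the scaling or median-of-ratios size factors were used, and 0.06 when libraries were quantile normalized. Nlrc5, the transactivator of class I genes, averaged 2.93 ± 0.311 TPM in MU and 3.38 ± 1.17 TPM in WT (log2 fold change −0.12, limma adjusted p = 0.761).

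Tap1 and Tap2 share a stretch of chromosome 17 with the immunoproteasome genes Psmb9 and Psmb8. Over 34.3 kb, the MU libraries of all 4 genes were above the WT libraries without overlap, where 16.1% of all tested genes had every MU above every WT library. Psmb8 was below the filter and is not covered by that share. Psmb9, whose subunit changes the peptides the proteasome makes, was at 6.495, 4.97 and 9.71 TPM in MU and at 3.56, 3.03 and 2.26 TPM in WT. Psmb8 was low, at 0.298, 0.364 and 0.198 TPM in MU and at 0.0526, 0 and 0.173 TPM in WT. Tap1 and Psmb9 lie on opposite strands with overlapping annotation, their starts 211 bases apart. Whether strand was used in counting is not given here, so reads of that overlap could belong to either gene.

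Of 119 further genes of the pathway, 68 were tested, 13 rose and 10 fell. These were 19.1% higher and 14.7% lower, against 7.12% and 11.6% of all tested genes, so the lower share was near the background. The falls include Cd1d1, which met the filter through its WT libraries alone, so the lower share is only a description. Their median log2 fold change was 0.19. Among 28 signalling and sensing genes, 4 of the 23 tested rose and 4 fell (17.4% each way, against 7.12% and 11.6% of all tested genes). The 4 falls were Socs3, Socs1, Ptpn2 and Traf3. Socs3, an inhibitor that blocks JAK kinases, was at 15.4, 13.0 and 14.7 TPM in MU and at 25.7, 33.3 and 27.5 TPM in WT. Its log2 fold change was −0.95 (SE 0.13; adjusted p = 0.00478 in limma). Socs1, a related inhibitor, averaged 6.25 ± 0.392 TPM in MU and 10.98 ± 2.22 TPM in WT (limma adjusted p = 0.0276). Ptpn2, a phosphatase of JAK and STAT proteins, averaged 23.5 ± 1.59 TPM in MU and 32.5 ± 1.49 TPM in WT (limma adjusted p = 0.0182). Other negative regulators gave no call: Ptpn6 averaged 1.16 TPM in MU and 0.856 TPM in WT (limma adjusted p = 0.566), and Pias1 averaged 14.0 TPM in MU and 13.1 TPM in WT (0.679). Traf3, an adaptor between the sensors and IRF3, averaged 18.8 ± 1.41 TPM in MU and 30.95 ± 1.58 TPM in WT (limma adjusted p = 0.00521). The 4 rises were Eif2ak2, Stat6, Samhd1 and Il10rb. Eif2ak2, the RNA-activated kinase PKR, averaged 19.2 ± 0.495 TPM in MU and 12.1 ± 1.44 TPM in WT (limma adjusted p = 0.0115). Stat6, which mediates interleukin-4 signalling, averaged 58.0 ± 1.81 TPM in MU and 41.0 ± 3.03 TPM in WT (limma adjusted p = 0.0119). Samhd1, an enzyme that degrades deoxynucleotides, averaged 38.5 ± 0.167 TPM in MU and 29.1 ± 0.454 TPM in WT (limma adjusted p = 0.0150). Il10rb, a receptor chain used by type III interferon, averaged 9.64 ± 0.698 TPM in MU and 4.93 ± 1.73 TPM in WT (limma adjusted p = 0.0314). Socs3 and Traf3 passed in all 18 alternative settings. The calls of Stat6 and Samhd1 were lost without any single MU library (0.0515 to 0.0800), that of Eif2ak2 without MU replicate 2 or 3 (0.05235 to 0.0593), and those of Socs1 and Ptpn2 without any single MU library or WT replicate 1 (0.0517 to 0.101). That of Il10rb was lost without any single library other than WT replicate 3 (0.05735 to 0.106). Position centring ended the calls of Stat6 (0.1199), Ptpn2 (0.2494) and Il10rb (0.0687).

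Of 56 further interferon-induced genes 28 were tested, 7 rose and 4 fell (25% and 14.3%, against 7.12% and 11.6% of all tested genes). Lgals9, which encodes the immune-regulatory lectin galectin-9, had the smallest adjusted p, at 26.1, 27.3 and 30.2 TPM in MU and at 4.62, 4.66 and 4.89 TPM in WT. Its log2 fold change was 2.33 (SE 0.10; adjusted p = 1.0e-04 in limma). Parp10, an ADP-ribosyltransferase, averaged 17.2 ± 2.30 TPM in MU and 7.16 ± 0.419 TPM in WT (limma adjusted p = 0.00242). Ifitm3, which restricts virus entry, averaged 341.1 ± 13.2 TPM in MU and 202.1 ± 16.9 TPM in WT (limma adjusted p = 0.00342). Irgm1, an immunity-related GTPase, averaged 6.72 ± 0.530 TPM in MU and 4.396 ± 0.304 TPM in WT (limma adjusted p = 0.0332). The falls were Ly6e, Trim30a, Zc3hav1 and Ifi203. Ly6e, a surface protein that restricts coronavirus entry, was at 56.6, 68.4 and 76.4 TPM in MU and at 159.6, 151.6 and 176.3 TPM in WT, a log2 fold change of −1.27 (SE 0.13; adjusted p = 0.00189 in limma). Trim30a averaged 1.47 ± 0.283 TPM in MU and 3.99 ± 0.683 TPM in WT (limma adjusted p = 0.0128). Zc3hav1, the antiviral protein ZAP, averaged 34.1 ± 0.490 TPM in MU and 47.3 ± 3.79 TPM in WT (limma adjusted p = 0.0161). Ifi203, of the HIN-200 family, averaged 6.20 ± 0.392 TPM in MU and 11.3 ± 2.94 TPM in WT (limma adjusted p = 0.0414). Lgals9, Parp10, Ifitm3 and Ly6e passed in all 18 alternative settings. The calls of Irgm1 and Ifi203 were lost without any single MU library or WT replicate 1 or 3 (0.0562 to 0.128), that of Zc3hav1 without any single MU library or WT replicate 1 (0.05305 to 0.0741), and that of Trim30a without MU replicate 1 or 2 or WT replicate 1 (0.0508 to 0.0547). Irgm1 also lost its call after position centring (0.1465).

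Of 26 further genes of antigen processing and presentation 17 were tested, 2 rose and 2 fell. That is 11.8% each way, and the lower share was near the 11.6% of all tested genes (7.12% were higher). The falls include Cd1d1, which met the filter through its WT libraries alone, so this lower share is only a description. Psmb9 rose, with a log2 fold change of 1.0013 (SE 0.25; adjusted p = 0.0356 in limma). Psme1, a subunit of the proteasome activator PA28, averaged 41.9 ± 3.76 TPM in MU and 29.7 ± 4.33 TPM in WT (limma adjusted p = 0.0450). Cd1d1, which presents lipids to natural killer T cells, fell to 0.118, 0.122 and 0.395 TPM in MU, against 6.53, 7.32 and 6.25 TPM in WT. It met the filter through its WT libraries alone, so that it had to differ, and its log2 fold change of −2.67 is a description. H2-Q7, a non-classical class I gene with close paralogs, was at 0.623, 0.474 and 1.001 TPM in MU and at 1.97, 1.66 and 2.32 TPM in WT (limma adjusted p = 0.0397). Of its MU libraries only replicate 3 reached the 1 TPM of the filter. The calls of Psme1 and H2-Q7 were lost without any single MU library or WT replicate 1 or 3 (0.0629 to 0.1472), and that of Psmb9 without MU replicate 1 or 3 or any WT library (0.0602 to 0.0982) and after position centring (0.0585). Psme1 likewise lost its call after position centring (0.0535).

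**Figure D4:**
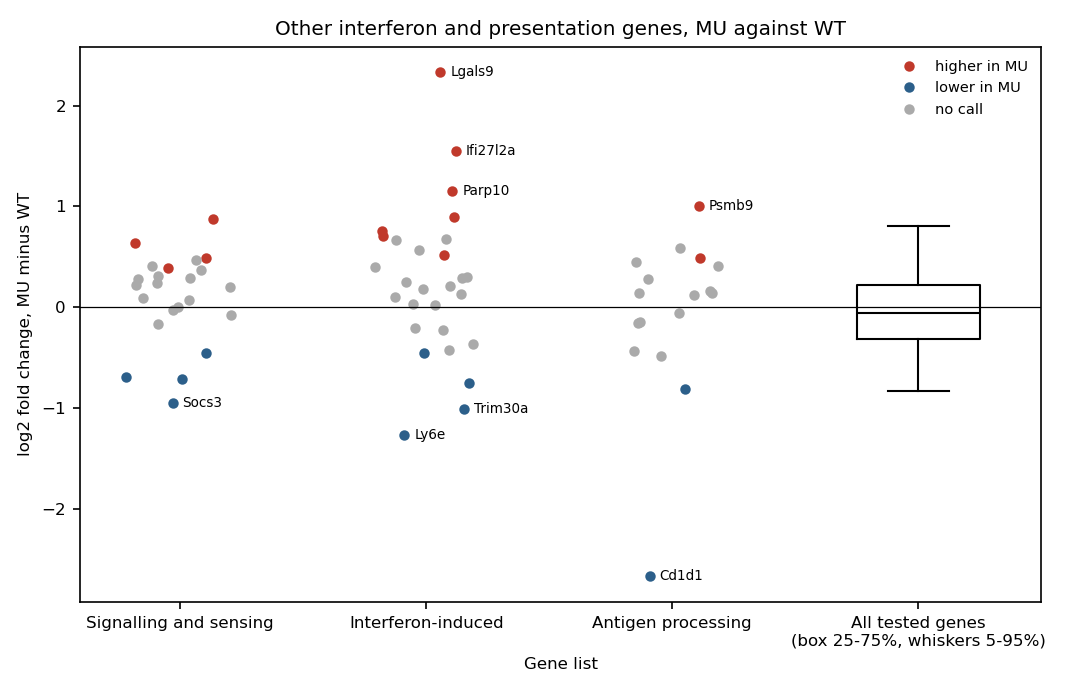
Log2 fold change, MU minus WT, of 68 tested genes of the pathway outside the 38, in 3 lists, beside the spread of all 14209 tested genes (box, quartiles; whiskers, 5th to 95th percentile). Each list holds red points (higher in MU) and blue points (lower in MU), from 2.33 for Lgals9 to −2.67 for Cd1d1.

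In the authors' deposited table, 35 members have an adjusted p. Of these, 6 were higher and 3 lower at an adjusted p under 0.05, where 21.1% of all genes with an adjusted p in that table were called, 9.42% higher and 11.6% lower. Fold changes in the authors' deposited table, on the log2 scale, were 0.86 for Stat2, 0.83 for Bst2, 0.65 for Ifi27, 0.72 for Tap1 and 0.61 for Tapbp. For the genes that fell, the authors' deposited table gives −0.95 for Ifit2, −1.07 for Ifit3, −0.50 for Cgas and −0.31 for Trim25. All 9 have the same sign as in limma.

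Summed over the 16 effectors, TPM was 200.8, 198.8 and 214.1 in MU and 165.8, 172.8 and 183.9 in WT. Ifi27 alone made up 43.6% of that sum. The 7 class I genes summed to 991.7, 964.8 and 956.9 TPM in MU and 978.0, 873.6 and 882.0 TPM in WT, with B2m making up 63.0%. The 4 sensors summed to 26.3, 27.7 and 25.3 TPM in MU and 33.2, 23.6 and 30.7 TPM in WT. The 5 transcription factors summed to 87.9, 85.9 and 99.9 TPM in MU and 66.6, 76.2 and 70.8 TPM in WT, and the 6 receptors and kinases to 161.9, 158.6 and 158.6 TPM in MU and 160.4, 144.0 and 159.4 TPM in WT. These sums are descriptions led by their most abundant gene. The groups overlapped for class I genes, sensors and receptors, but not for effectors and transcription factors. Many members overlap a gene on the other strand (Jak1 with Raver2, Irf3 with Bcl2l12, Adar with Chrnb2, B2m with Patl2), and part of their reads could belong to the partner if strand was not used in counting. Some overlap a protein-coding gene on the same strand (Tapbp with Zbtb22, Ifnar2 with Gm21970, Irf9 with Rnf31), where strand does not separate the reads.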

How the data were processed

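Poly(A) RNA was made into strand-marking libraries, per the labels' protocols. The submitters' processing notes name mm10 as the build and list DESeq2 1.20.0, featureCounts 1.5.0-p3, HISAT2 2.05.0 and FastQC 0.11.4, without roles, annotation or strand setting. As files, the authors deposited log2(TPM + 1) values per library, and a table of log2 fold changes, p-values and adjusted p-values. TPM keeps no depth, so no counting interval was computed and no count model was run. Shrinkage of the authors' fold changes is not stated there.

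The log2(TPM + 1) scale (pseudocount 1) was kept for testing with limma 3.58.1 in R 4.3.3 (moderated, intensity trend, two-sided, Benjamini-Hochberg over 14209 genes with at least 1 TPM in at least 3 of 6 libraries). The log2 scale with a pseudocount understates changes of low genes. No label says that the libraries are separate cultures; the p-values therefore reflect spread among these libraries alone, and that spread may be technical. Positions are from GENCODE M21 (GRCm38, the mm10 assembly), which matched 55141 identifiers, and promoters from RefSeq (GRCm38.p6). Of the 119 further genes, 118 matched as written and 1 by identifier. The 38 members and all gene lists were chosen with earlier results of these data known. Every member is named; of other genes, the 4 rises and 4 falls with the smallest adjusted p in each list. Marker genes, the neighbours within the Ifit and Tap loci, Ptpn6 and Pias1 were named after their values were seen. The test was tried on simulated data.

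Alternatives were a replicate block, pseudocounts, filters, scalings, limma options, leaving out each library, position centring and a GC and length correction (loess, span 0.3). Position centring subtracted the median of up to 20 neighbours a side, taken relative to the median over all tested genes.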

Additional observations from a re-analysis of the deposited data

How the results depend on the processing

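Over 18 alternative settings, 2 of the 9 called members, Stat2 and Ifit2, passed in each; the other 7 lost the call in at least 1 setting, and 0 of the 9 changed sign. Of the 21 tested members without a call, 7 passed in at least 1 setting and 7 changed sign in at least 1. Members called higher numbered 5, and 8 with the GC and length correction and 3 with the replicate block. Members called lower numbered 4, and 2 with no filter or any of 3 other scalings (mtDNA-encoded genes left out, median of ratios, quantile), and 1 with the replicate block. The effector falls were 1 in each of these 5 settings, and the effector rises 1 with no filter. Class I rises were 4 with the GC and length correction or quantile scaling, 1 after position centring and 0 with the replicate block. With the GC and length correction, STAT and IRF rises were 2, further signalling rises 7 and rises over all genes 1594. With no filter, more genes were adjusted over: further rises were 6, further interferon-induced rises 3, and further presentation genes 0 higher and 1 lower. Further presentation rises were 4 under quantile or median-of-ratios scaling, and 1 after position centring or in limma without trend; the falls were 1 with a pseudocount of 0.1 or mtDNA-encoded genes left out. The share of calls that were higher over all genes was 37.9%, and 48.5%, 48.3% and 48.8% under the 3 scalings in that order. The cause of these differences was not tested.

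Same-numbered libraries of MU and WT did not deviate together (correlations 0.05, 0.02 and −0.07 across genes, and 2 of 6 libraries correlated best with their own number). No pairing by number was thus detected, which 3 libraries per group cannot settle. The replicate block, which leaves fewer residual degrees of freedom, gave 456 genes higher and 637 lower, against 1012 and 1655; 3 further rises and 4 further falls; 0 sensor falls; signalling 0 higher and 2 lower; interferon-induced 3 higher and 1 lower; presentation 0 higher and 1 lower.

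Leaving out 1 library gave 427 to 1153 rises and 644 to 2238 falls over all genes, 1 to 7 and 1 to 2 among members, 0 to 3 and 1 to 1 among effectors, 0 to 3 rises in class I, 0 to 1 sensor falls, 3 to 15 and 4 to 11 among further genes, 0 to 6 and 2 to 4 in signalling, 3 to 7 and 1 to 5 in interferon-induced, and 0 to 2 and 1 to 2 in presentation.

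Among the tested members and the 20 other named genes, changes of sign occurred only in members without a call. Jak1 was at 0.0350, 0.0354 and 0.0938 under the 3 scalings, −0.1025 to 0.0240 without 1 library (highest without WT replicate 1), 0.0288 after position centring and 0.0592 with the GC and length correction. B2m was at 0.0316, 0.0320 and 0.0559 under the 3 scalings and −0.0960 to 0.0575 without 1 library (highest without WT replicate 1). Position centring gave −0.0763 for Ifnar1, −0.0055 for Ifngr1 and 0.0460 for Nlrc5, which was at −0.360 to 0.0370 without 1 library (highest without WT replicate 1). Ifngr2 was at −0.160 to 0.0102 without 1 library (highest without WT replicate 3) and 0.0163 with the GC and length correction. Ddx58 was at −0.139 to 0.232 without 1 library, with −0.0620 without MU replicate 2 and the lowest without WT replicate 2. Depth is unknown, so what it limits cannot be given.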
